A study of Homo sapiens with 2 samples.

Results

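The genes described here are 10 core genes of the NF-kB pathway, chosen by symbol from 46732 genes listed in the deposited gene table. They are the subunits NFKB1, NFKB2, RELA and RELB, the inhibitors NFKBIA and NFKBIB, the TNF-induced genes TNFAIP3 and TNFAIP2, and the inhibitor-of-apoptosis genes BIRC2 and BIRC3. All 10 were found, and each reached 100 counts in one library or both. RNA came from secondary mammospheres of T47D, a human breast cancer cell line of the luminal kind that carries the estrogen receptor. Mammospheres are spheres of cells that grow unattached, here kept for 7 days, passaged, and kept for another 7 days in ultralow attachment plates with MammoCult medium. The control group is T47D mammospheres labelled control, and the other group is T47D mammospheres labelled CIC knockdown. CIC is a transcriptional repressor that acts downstream of receptor tyrosine kinases. The means of knockdown, and whether clones or pools of cells were used, are not given in the sources used here. Each group has 1 library with 1 deposited column, so the variation between cultures is unknown and no p-value is given.

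NF-kB is a family of dimeric transcription factors that rest in the cytoplasm bound to inhibitors of the IkB type. Signals from TNF, interleukin-1 and related receptors lead to loss of the inhibitor in the canonical branch, which frees dimers that contain RELA. In the other branch, the kinase encoded by MAP3K14 leads to the processing of the NFKB2 product, which then pairs with RELB. The factors drive the genes of their own brakes, among them NFKBIA, TNFAIP3 and BIRC3, so the transcripts of these genes are widely read as a measure of the pathway. In mammary epithelium, NF-kB is known for its part in inflammation, cell survival and the growth of progenitor cells.

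Total depth was 47099221 counts for control and 68420805 for the library labelled CIC knockdown. CIC itself had 607 and 872 counts, a ratio of 0.98 (95% counting interval 0.882 to 1.09) after scaling for library size, so a loss of its mRNA, as the label would have it, was not seen. ETV4 and ETV5, known targets of CIC repression, had ratios of 4.62 (3.71 to 6.0) and 4.93 (4.24 to 5.86). Since CIC mRNA did not show the knockdown that the label names, the groups are called by their labels, and every direction is between the labels. The luminal markers EPCAM, KRT8, KRT18, KRT19, ESR1, GATA3 and FOXA1 were all abundant, from 41.7 to 3082 TPM in control and from 42.2 to 3141 TPM in the other library. The leukocyte markers PTPRC, CD3E and MS4A1 had 0 counts in both libraries, and all 7 leukocyte markers summed to 1.19 and 1.52 TPM. The 3 endothelial markers summed to 0.0740 and 0.124 TPM. The 3 fibroblast markers summed to 4.71 and 2.91 TPM, of which LUM made up 4.44 and 2.44. LUM was lower, with 550 and 432 counts and a ratio of 0.537 (0.471 to 0.609), and COL1A1 was higher, with 58 and 168 counts and a ratio of 1.95 (1.46 to 2.71). Of the basal markers KRT5 and KRT14 had 0 counts in both libraries and TP63 had 38 and 8. The part of these markers in the results was not tested.

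BIRC3 was the lowest of the 10 genes relative to control, at 0.57 of its control level, and TNFAIP3 and NFKBIA were also lower in the library labelled CIC knockdown, at 0.731 and 0.847. These are 3 genes that NF-kB is known to induce and whose products restrain or modulate its signalling. Other induced or inhibitor genes among the 10 did not share their direction. TNFAIP2, also a TNF-induced gene, was higher. The intervals of the inhibitor gene NFKBIB and of NFKB2, whose product is also an inhibitor, included an equal level. Taken alone, the most abundant transcript of TNFAIP3 had a log2 ratio of 0.23. Whether the activity of the pathway differed was not tested. RELA, NFKB1 and TNFAIP2 were higher, at 1.17, 1.09 and 1.33 times control. NFKB2, RELB, NFKBIB and BIRC2 had counting intervals that included an equal level. Ratios are of counts scaled to library size, and a gene is called higher or lower where its exact 95% interval for counting error lies on one side of 1.

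By that rule 3 of the 10 genes were higher and 3 lower. Over the 13722 genes tested, those that reach 100 counts in one library or both, the same rule called 33.8% higher, 27.3% lower and 61.1% either, so the counts of genes called among the 10 are close to the background. At least 2-fold differences were found in 0 of the 10 genes, against 2.14% of all genes tested, 1.17% higher and 0.962% lower. The median log2 ratio of the 10 genes was -0.02, beside 0.02 over all genes tested. The number higher was 4 with plain library totals or with the table of assembled transcripts and 2 from halved counts. With the most abundant transcript alone it was 4 higher and 4 lower, and TNFAIP3 turned to a log2 ratio of 0.23. From halved counts, 3610 of the 13722 genes tested were higher and 2938 lower. For the other settings no such share over all genes is given. Over all genes the range from the 10th to the 90th percentile ran from -0.31 to 0.38, and BIRC3, TNFAIP3 and TNFAIP2 lay outside it in counts. That range spans genes of every depth. Among the 2124 genes with a summed count of 200 to 600, BIRC3 lay at percentile 3.95, while TNFAIP3 at 13.7 and TNFAIP2 at 82.2 lay inside the 10th to the 90th. In TPM the log2 ratio of TNFAIP3 was -0.29.

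**Figure D1:**
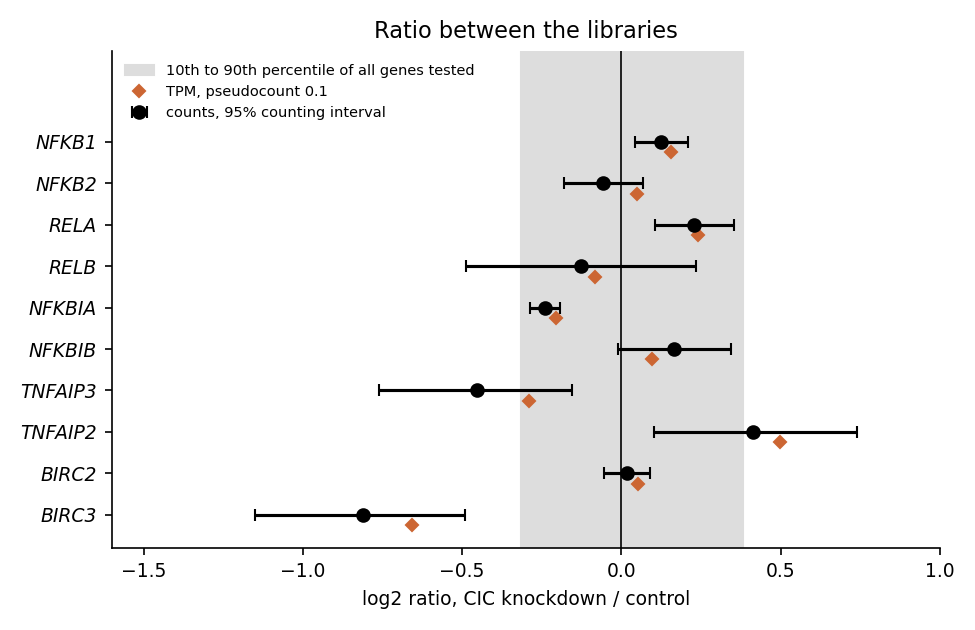
Log2 ratio of the library labelled CIC knockdown to control for each of the 10 genes, from scaled counts with the 95% counting interval (black) and from the deposited TPM with a pseudocount of 0.1 (diamonds). The grey band runs from the 10th to the 90th percentile of all genes tested, -0.31 to 0.38; BIRC3 at -0.81 and TNFAIP3 at -0.45 lie below it and TNFAIP2 at 0.41 above it, but among genes of similar summed count TNFAIP3 (percentile 13.7) and TNFAIP2 (82.2) lie within the 10th to the 90th.

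Levels per transcript length spanned a wide range. NFKBIA was the most abundant of the 10 genes, at 91.3 TPM in control and 79.2 TPM in the library labelled CIC knockdown. BIRC2 followed at 14.9 and 15.4 TPM, NFKB1 at 10.4 and 11.7, RELA at 7.35 and 8.70, NFKB2 at 5.78 and 5.99, and NFKBIB at 5.05 and 5.40. RELB stood at 1.09 and 1.02 TPM. The lowest levels were those of TNFAIP3 at 0.782 and 0.622 TPM, TNFAIP2 at 0.595 and 0.882 TPM, and BIRC3 at 0.546 and 0.31 TPM. The order of the 6 most abundant genes was the same in both libraries. In control, neighbours from RELB down to BIRC3 overlapped within their Poisson counting intervals, as did NFKB2 and NFKBIB. In the other library TNFAIP2 stood above TNFAIP3, and both stood above BIRC3, with intervals that did not overlap.

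**Figure D2:**
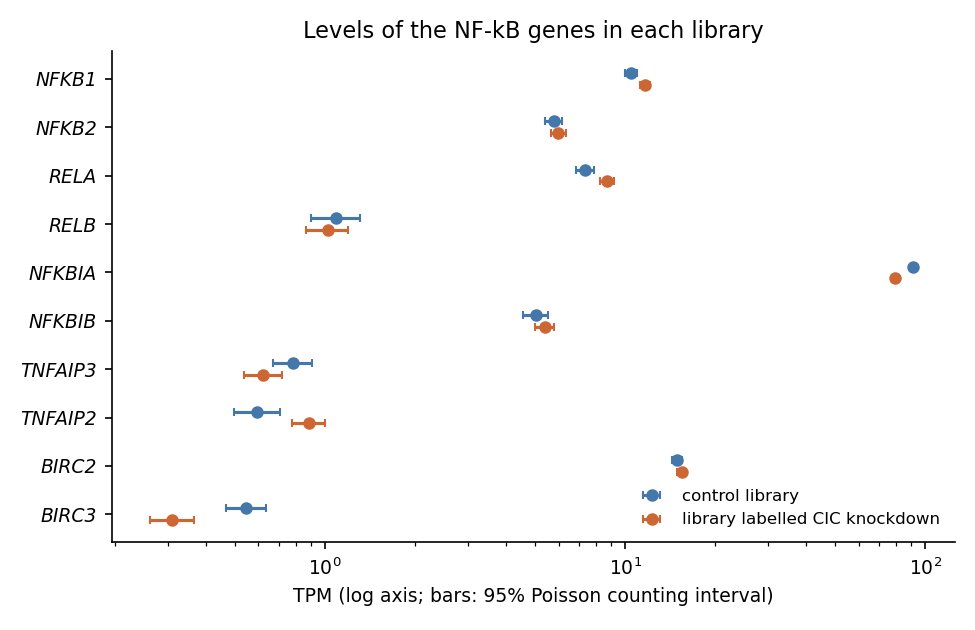
TPM of each of the 10 genes in the control library (blue) and the library labelled CIC knockdown (orange), on a log axis, with 95% Poisson counting intervals. NFKBIA lies near 91.3 and 79.2 TPM, while BIRC3 has the lowest level in both libraries, at 0.546 and 0.31 TPM.

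Of the neighbouring inhibitor-of-apoptosis genes, BIRC3 was lower while the interval of BIRC2 included an equal level. BIRC2 and BIRC3 encode the ubiquitin ligases cIAP1 and cIAP2, which modify RIPK1 at the TNF receptor and keep the kinase of the non-canonical branch low. The genes are neighbours on chromosome 11 of GRCh38, BIRC3 (gene 330) at 102317373 to 102339403 and BIRC2 (gene 329) at 102347182 to 102378670, 7779 bases apart. BIRC3 had 171 counts in control and 142 in the library labelled CIC knockdown although the latter was sequenced more deeply. Scaled to library size these are 3.65 and 2.07 counts per 1e6 (CPM), a log2 ratio of -0.81 and a ratio of 0.57 (0.45 to 0.712). BIRC3 ranked 227 from the lowest of the 13722 genes tested. Many genes of few counts scatter widely: among 2124 genes with a summed count of 200 to 600, 3.91% had a lower ratio than BIRC3. In that band of counts 23.4% were called higher and 22.6% lower. BIRC2 had 2627 and 3900 counts, with a ratio of 1.01 (0.963 to 1.06). Of the genes that flank the pair, named for their position, YAP1 had a log2 ratio of 0.06 (interval of the ratio 0.991 to 1.10), and TMEM123 was lower at -0.05 (0.941 to 0.997).

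A pair of genes can be compared inside each library without any scaling of library size. BIRC3 took 6.11% of the summed counts of BIRC2 and BIRC3 in control (Clopper-Pearson 95% interval 5.25 to 7.06) and 3.51% (2.97 to 4.13) in the library labelled CIC knockdown. The intervals did not overlap, but the shares use the same counts as the ratios above. Per transcript length, BIRC2 was 27.2 times as abundant as BIRC3 in control and 49.8 times in the other library.

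The 250 bases before RefSeq start sites were searched, and those of these neighbours are shown because one holds matches to the kB consensus, the DNA motif that NF-kB dimers bind, and the other holds none. Sequences are from RefSeq on GRCh38.p14, each on the strand of its gene and written 5′ to 3′, with bases that match the kB consensus on either strand in capitals. Each stretch ends before the first deposited transcript start that lies in it. The BIRC3 stretch is chr11:102317234-102317372 on the plus strand, and the BIRC2 stretch is chr11:102346964-102347181 on the plus strand. The RefSeq starts that placed them, 102317484 and 102347214, had 0 counts of their own, while the most counted transcripts begin at 102317450 for BIRC3 and 102347182 for BIRC2.
BIRC3: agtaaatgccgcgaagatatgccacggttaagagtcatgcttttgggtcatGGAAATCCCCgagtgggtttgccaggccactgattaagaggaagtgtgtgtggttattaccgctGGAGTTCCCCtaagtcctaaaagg
BIRC2: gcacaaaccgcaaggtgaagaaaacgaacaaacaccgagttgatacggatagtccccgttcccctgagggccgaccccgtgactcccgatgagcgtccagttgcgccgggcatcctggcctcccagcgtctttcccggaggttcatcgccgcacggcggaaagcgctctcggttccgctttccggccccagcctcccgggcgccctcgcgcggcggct
BIRC3 has 2 matches on the opposite strand, which begin 199 and 135 bases before the RefSeq start. The kB consensus was found in 5.21% of 35116 promoter stretches of the same length, over all genes in the table. Of the 10 genes, all but RELB had a stretch in the table, 15 stretches in all, and 7 of the 15 held the consensus, in 6 genes: NFKB1, NFKB2, NFKBIA, NFKBIB, TNFAIP3 and BIRC3. RELA, TNFAIP2 and BIRC2 had no match in their stretches, and that of TNFAIP2 lies before neither of its counted starts. The CIC octamers TGAATGAA and TGAATGGA, searched on both strands, were found in 0 of the 15, against 1.40% and 0.832% of all stretches. A match is a description of letters and does not show binding in these cells.

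The inhibitors and the deubiquitinating brake came next. NFKBIA encodes IkBα, which binds RELA-containing dimers, moves them out of the nucleus and is made again soon after it is lost. NFKBIA (gene 4792, chromosome 14, 35401510 to 35404754) was measured by 6624 counts in control and 8226 in the library labelled CIC knockdown, or 141 and 120 CPM. The ratio was 0.847 (0.82 to 0.875). This interval is the narrowest among the called genes, since NFKBIA holds the most counts, and it has 1 annotated transcript, so no division among transcripts enters its value. It lay at percentile 14.1 of all genes tested. NFKBIB, which encodes the related and more slowly degraded IkBβ (gene 4793, chromosome 19, 38899503 to 38908894), had 425 and 699 counts, with a ratio of 1.12 (0.993 to 1.27). NFKBIB overlaps SIRT2 and CCER2 in the annotation, and its count is uncertain for that reason, because the use of strand in counting is not stated.

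Against RELA, NFKB1 and NFKBIB, NFKBIA took a smaller share within the library labelled CIC knockdown than within control. Against TNFAIP3 the intervals of the shares overlapped. It took 88.7% (88.0 to 89.4) of the counts of NFKBIA and RELA together in control and 85.1% (84.3 to 85.8) in the other library. Per length, NFKBIA was 12.4 times as abundant as RELA in control and 9.10 times in the other library. The TPM ratio of NFKBIA to NFKB1 was 8.73 and 6.79, and that of NFKBIA to NFKBIB was 18.1 and 14.7. In these 3 pairs the shares of counts had intervals that did not overlap between the libraries. The shares use the same counts as the ratios of the single genes and are not separate evidence. BIRC3 took 8.41% (7.24 to 9.70) of the counts of BIRC3 and NFKB1 in control and 4.55% (3.84 to 5.34) in the other library. Pairs of genes other than those given here and elsewhere in the text were not compared. Of all genes tested, 61.1% were called in either direction by counting error.

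**Figure D3:**
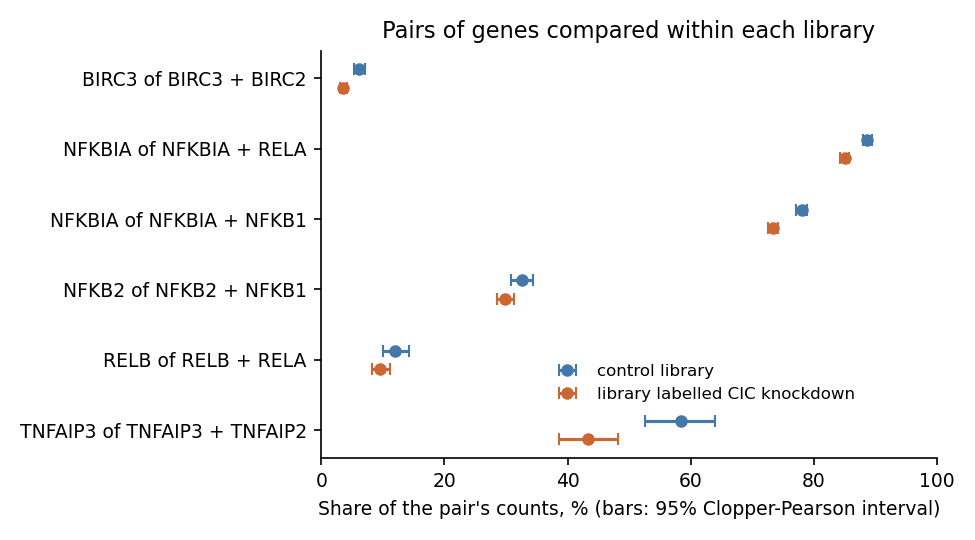
Share of a pair's summed counts taken by the first-named gene, in percent, in the control library (blue) and the library labelled CIC knockdown (orange), with 95% Clopper-Pearson intervals. BIRC3 took 6.11% and 3.51% of its pair with BIRC2, and the intervals of NFKB2 with NFKB1 and of RELB with RELA overlapped.

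TNFAIP3 encodes A20, a ubiquitin-editing enzyme that ends signalling from the TNF receptor. TNFAIP3 (gene 7128, chromosome 6, 137866317 to 137883312) was measured by 177 counts in control and 189 in the other library, or 3.78 and 2.75 CPM. The ratio was 0.731 (0.59 to 0.899). Its most abundant transcript alone had the opposite direction, at a log2 ratio of 0.23 from 87 and 150 counts. The 3 transcripts that begin at 137867259 held 123 and 163 counts, a ratio of 0.905 (0.711 to 1.15), which included an equal level. A further 27 control counts, and 0 of the other library, had been given to the 2 transcripts that begin at 137867587, and 27 and 26 counts to the one that begins at 137871413. Counts at 137867587 thus enter the gene-level value of control alone. The gene overlaps WAKMAR2, which had 0 and 3 counts.

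The promoter stretches of NFKBIA and TNFAIP3 are shown as those of well-known feedback genes of the pathway. Of the 6 genes that hold the consensus, NFKBIA, TNFAIP3 and BIRC3 were lower, NFKB1 was higher, and the intervals of NFKB2 and NFKBIB included an equal level. Of the genes without a match in the stretches searched, RELA and TNFAIP2 were higher and the interval of BIRC2 included an equal level. The TNFAIP2 stretch lies before neither of its counted starts. The NFKB1 match lies before the start at 102501359, which held 188 and 270 of its counts. At the TNFAIP3 start 137867259, before which its stretch lies, the ratio was 0.905 (0.711 to 1.15). Over all genes tested 27.3% were lower and 33.8% higher. A link between the consensus and the ratios was not tested. The NFKBIA stretch is chr14:35404755-35404999 on the minus strand and the TNFAIP3 stretch is chr6:137867009-137867217 on the plus strand, with capitals as above.
NFKBIA: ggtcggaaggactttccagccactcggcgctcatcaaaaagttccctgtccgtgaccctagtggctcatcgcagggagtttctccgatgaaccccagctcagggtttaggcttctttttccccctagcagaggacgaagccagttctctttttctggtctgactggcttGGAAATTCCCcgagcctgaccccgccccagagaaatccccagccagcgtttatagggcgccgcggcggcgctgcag
TNFAIP3: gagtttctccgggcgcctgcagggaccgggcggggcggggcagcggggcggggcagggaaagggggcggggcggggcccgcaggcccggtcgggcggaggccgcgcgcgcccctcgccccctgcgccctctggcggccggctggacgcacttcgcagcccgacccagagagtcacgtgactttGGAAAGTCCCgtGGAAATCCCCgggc
NFKBIA has 1 match, which begins 81 bases before the RefSeq start, and TNFAIP3 has 2, at 67 and 55 bases. All 3 lie on the opposite strand.

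TNFAIP2 encodes a protein tied to membrane protrusions and exocyst function, and it is induced by TNF in endothelial and myeloid cells. It had 126 counts in control and 247 in the library labelled CIC knockdown, 2.69 and 3.59 CPM, a ratio of 1.33 (1.07 to 1.67). Its direction was opposite to that of TNFAIP3, which took 58.4% (52.6 to 64.0) of the pair's counts in control and 43.3% (38.6 to 48.1) in the other library. If both mates of each pair of reads were counted, which is not stated, the interval of TNFAIP2 widens to 0.979 to 1.84 and includes an equal level. The other 5 called genes kept intervals on the same side of 1 from halved counts.

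The transcripts of TNFAIP2 (gene 7127, chromosome 14, 103121175 to 103137439) were assigned in nearly opposite ways in the libraries. In control, 125 of its 126 counts had gone to transcripts that begin between 103121175 and 103121491. In the library labelled CIC knockdown, 241 of 247 counts had gone to the transcript that begins at 103126306. The models that held counts share their end at 103137439. Transcripts were grouped where neighbouring starts lay within 500 bases. Summed over the transcripts whose share of TNFAIP2 counts was larger in the library labelled CIC knockdown, the gain in share was 96.8%, at percentile 99.1 of 9981 genes with several counted transcripts, whose median was 16.0%. The intervals of the shares cover counting error only and leave out the error of that division.

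Of the 4 subunits, RELA and NFKB1 were higher, and the intervals of NFKB2 and RELB included an equal level. RELA encodes p65, the subunit with a transactivation domain that carries most canonical activity. RELA (gene 5970, chromosome 11, 65653596 to 65662972) was measured by 841 counts in control and 1445 in the library labelled CIC knockdown, 17.9 and 21.0 CPM, a ratio of 1.17 (1.08 to 1.28). Most of its counts, 701 and 1262, had gone to 1 transcript of 2517 bases. RELA-DT, a transcript that begins 6 bases away in the other direction, had 180 and 251 counts and a log2 ratio of -0.07. NFKB1 encodes p105, the precursor of the DNA-binding subunit p50. NFKB1 (gene 4790, chromosome 4, 102501266 to 102617302) was measured by 1862 and 2980 counts, 39.7 and 43.4 CPM, a ratio of 1.09 (1.03 to 1.16).

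NFKB2 encodes p100, which is both an inhibitor and the precursor of p52, and RELB encodes the partner of p52. NFKB2 (gene 4791, chromosome 10, 102394110 to 102402529) was measured by 902 and 1272 counts, a ratio of 0.962 (0.882 to 1.05). Its nearest tested neighbour, PSD, lies 88 bases beyond its end and had 189 and 213 counts. RELB (gene 5971, chromosome 19, 45001449 to 45038194) was measured by 114 and 153 counts, with a ratio of 0.917 (0.714 to 1.18). Differences inside that interval were not detectable at this depth. Its transcript that begins at 45001464 had 14 and 56 counts, and the one at 45001470 had 100 and 97. NFKB2 took 32.6% (30.9 to 34.4) of the counts of NFKB2 and NFKB1 in control and 29.9% (28.5 to 31.3) in the other library. RELB took 11.9% (9.95 to 14.2) of the counts of RELB and RELA, and 9.57% (8.18 to 11.1). In both pairs the intervals overlapped.

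Although its total was level, NFKB2 differed in which transcripts its counts were given to. The 4 transcripts that begin at 102394110 held 539 counts in control and 392 in the library labelled CIC knockdown, a ratio of 0.498 (0.434 to 0.566). The 3 that begin at 102395705 held 335 and 861 counts, a ratio of 1.75 (1.54 to 1.99). Transcripts of the upstream group, which begin between 102394110 and 102394578, took 60.9% (57.6 to 64.1) of the gene's counts in control and 31.5% (28.98 to 34.16) in the other library. These transcripts end at 102402524 or 102402529. The gains in transcript share summed to 30.6% of counts, at percentile 69.2 of the 9981 genes, so a difference of this size was common in these tables.

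The stretches before these start sites are shown because the shares of counts differed between them. The upstream one is chr10:102393860-102394109 and the downstream one chr10:102395455-102395704, both on the plus strand, with capitals as above.
NFKB2 upstream: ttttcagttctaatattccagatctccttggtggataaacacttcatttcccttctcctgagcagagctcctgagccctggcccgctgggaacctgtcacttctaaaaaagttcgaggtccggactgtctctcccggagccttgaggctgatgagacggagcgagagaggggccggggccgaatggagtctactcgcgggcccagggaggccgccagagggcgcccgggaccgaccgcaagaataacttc
NFKB2 downstream: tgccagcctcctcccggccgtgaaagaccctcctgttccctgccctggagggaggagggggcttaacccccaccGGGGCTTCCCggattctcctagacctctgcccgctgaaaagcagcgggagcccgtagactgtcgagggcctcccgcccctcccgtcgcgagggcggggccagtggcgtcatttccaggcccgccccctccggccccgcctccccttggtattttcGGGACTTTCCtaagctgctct
The upstream stretch holds 0 matches to the kB consensus and the downstream one 2, which begin 176 and 21 bases before the start. A stretch between them, before the start at 102394578, holds 4 matches over both strands. That start belongs to the upstream group, and the transcript that begins there had 10 and 9 counts. A link between the consensus and the shares of counts was not tested.

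NFKB1 showed a smaller difference of this kind, of a size common in these tables. Its gains in transcript share summed to 13.8% of counts, at percentile 46.0 of the 9981 genes, whose median was 16.0%. Its transcript that begins at 102501629 held 675 and 1477 counts, a ratio of 1.49 (1.36 to 1.64), and the one that begins at 102501934 held 681 and 988, a ratio of 0.99 (0.897 to 1.09). The transcript that begins at 102515199, farther into the gene, held 299 and 233 counts, a ratio of 0.534 (0.446 to 0.633). It took 16.1% (14.4 to 17.8) of the gene's counts in control and 7.82% (6.88 to 8.84) in the other library. In NFKBIB the 3 transcripts that begin at 38899969 held 385 and 692 counts, while those that begin between 38899503 and 38899938 held the rest. BIRC2 and BIRC3 had the smallest gains in transcript share among the 9 of the 10 genes with several counted transcripts, at 0.358% and 3.51% of counts. The deposited list of 4993 assembled splice variants held 0 variants of the 10 genes.

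**Figure D4:**
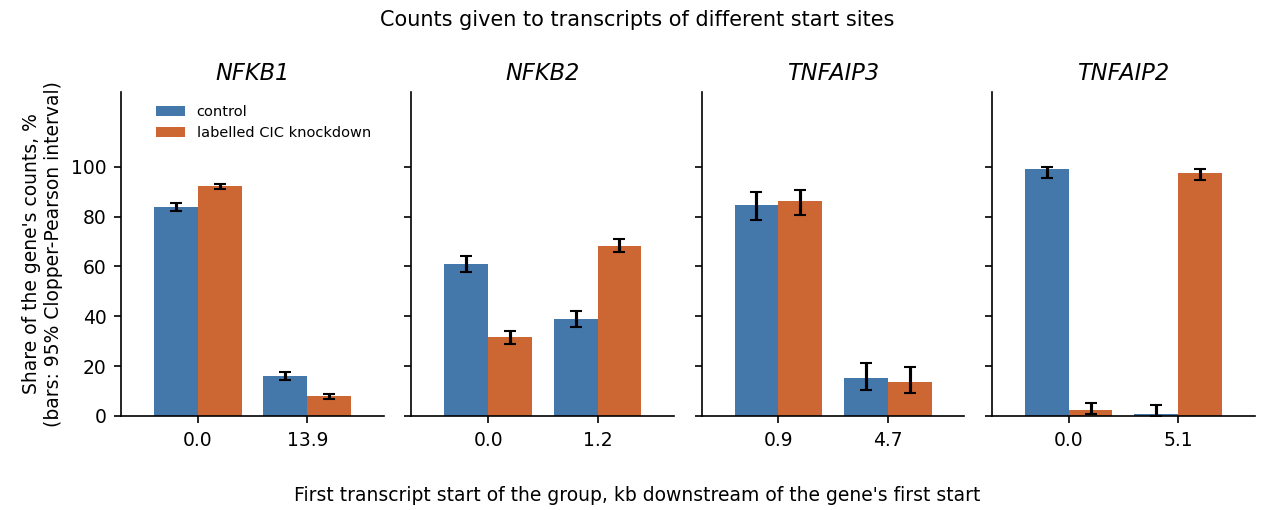
Share of a gene's counts, in percent, given to transcripts grouped by start site, in the control library (blue) and the library labelled CIC knockdown (orange), with 95% Clopper-Pearson intervals; the horizontal position names each group's first start in kb from the gene's first start, and groups with at most 3 counts are left out. The larger group differed between the libraries for NFKB2 (60.9% and 31.5% for the upstream group) and TNFAIP2 (99.2% and 2.43%), while TNFAIP3 had 84.7% and 86.2% in its main group.

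The wider pathway was described by 9 lists with 120 genes, of which 78 had at least 100 counts. By interval 19 of the 78 were higher and 25 lower, and 0 reached 2-fold; over all genes tested the shares were 33.8% and 27.3%. Their median log2 ratio was -0.01. In the list of other REL and IkB-type genes, NFKBIE, which encodes IkBε, was higher at a ratio of 1.35 (1.16 to 1.57) with 272 and 538 counts. NFKBIZ, which encodes the nuclear IkBζ, was lower at 0.834 (0.802 to 0.866) with 4796 and 5863 counts. BCL3, a nuclear partner of p50 and p52, had 125 and 212 counts and an interval that included 1. The list had 1 gene higher and 2 lower of 5.

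Of the IKK and upstream kinases, 2 of 12 were higher and 2 lower. MAP3K14, which encodes the kinase NIK of the non-canonical branch, had 141 and 310 counts, with a ratio of 1.49 (1.23 to 1.84). MAP3K8, a kinase that NF-kB1 p105 holds in check, had 2783 and 2468 counts, with a ratio of 0.605 (0.573 to 0.639), although its log2 ratio was -0.72 in counts and -0.20 in TPM. IKBKE, an IKK-related kinase, stood at 1.20 (1.05 to 1.37). The IKK subunits CHUK and IKBKG, named after their values were seen, had ratios of 1.00 and 0.975 with intervals that included 1, and IKBKB, also named after its value was seen, was lower at 0.835 (0.776 to 0.899).

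Adaptors and ubiquitin ligases had 6 of 15 higher and 5 lower. MYD88, the adaptor of Toll-like and interleukin-1 receptors, had 121 and 340 counts, with a ratio of 1.90 (1.55 to 2.38). CARD10, the scaffold that joins receptor signals to BCL10 and MALT1, had 317 and 818 counts, with a ratio of 1.76 (1.54 to 2.01). IRAK1, a kinase that acts after MYD88, stood at 1.26 (1.21 to 1.32). In the list of other negative regulators 4 of 10 were higher and 2 lower. TNIP2, a partner of A20, stood at 1.24, RNF11 of the A20 complex at 1.21, and COMMD1, which promotes the degradation of RELA, at 1.16.

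Of 19 receptors, 12 were measured, 2 higher and 4 lower. NGFR had 185 and 201 counts, with a ratio of 0.743 (0.604 to 0.91), FAS stood at 0.861 and TNFRSF10B at 0.869. TNFRSF12A, the receptor of TWEAK, named after its value was seen, was the most abundant receptor, at 151 and 160 TPM. Of 14 ligands, 2 were measured: TNFSF10 (TRAIL) was lower at 0.741 (0.64 to 0.855) with 365 and 396 counts, and TNFSF9 stood at 1.03 with an interval that included 1. IL1A, IL1B, LTB, CD40LG, TNFSF12 and TNFSF14 had 0 counts in both libraries. TNF had 6 and 0 counts, and IL17C had 9 and 60, a ratio of 4.0 (2.24 to 10.4). All 8 were named after their values were seen.

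Among 26 other inducible targets 8 were measured, 0 of them higher and 5 lower, with a median log2 ratio of -0.17 in counts and -0.01 in TPM. Over all genes tested 33.8% were higher and 27.3% lower, with a median log2 ratio of 0.02 in counts and 0.06 in TPM. GADD45B, a stress-induced gene with anti-apoptotic roles, had 1071 and 1115 counts, with a ratio of 0.71 (0.652 to 0.773). PLAU, the urokinase, had 156 and 175 counts, with a ratio of 0.768 (0.613 to 0.956). ICAM1 had 157 and 269 counts and an interval that included 1. From halved counts 3 of the 8 were lower, beside 2938 of the 13722 genes tested. Of the 18 genes below the count minimum, IL6, CCL2, CXCL10, CXCL3, CSF2, PTGS2, SAA1, CX3CL1 and VCAM1 had 0 counts in both libraries. The chemokine CCL5 had 0 counts in control and 27 in the library labelled CIC knockdown. CXCL1 had 0 and 6 counts, CXCL2 0 and 5, CXCL8 10 and 22, CCL20 4 and 10, and LCN2 45 and 78. CSF1 had 61 and 53 counts, SELE 12 and 10, and BCL2A1 4 and 0. These 18 were named after their values were seen. A count of 0 allows up to 3 counts by a one-sided limit, for counting error only.

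In the list of other inhibitor-of-apoptosis genes and caspases, which also holds HTRA2 and DIABLO, 2 of 10 were higher and 4 lower. DIABLO, named after its value was seen, was lower at 0.839. BIRC5 (survivin), which also serves cell division, was higher at 1.22 (1.16 to 1.29), HTRA2 was lower at 0.802 and CASP9 lower at 0.82. Of 4 measured genes that carry the TNFAIP name beside the 2 described, 2 were higher and 0 lower, with a median log2 ratio of 0.30: TNFAIP8L1 stood at 1.68 (1.42 to 2.01) with 182 and 450 counts and TNFAIP8L3 at 1.45 (1.15 to 1.86) with 105 and 225 counts. TNFAIP8 had 457 and 629 counts and an interval that included 1.

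**Figure D5:**
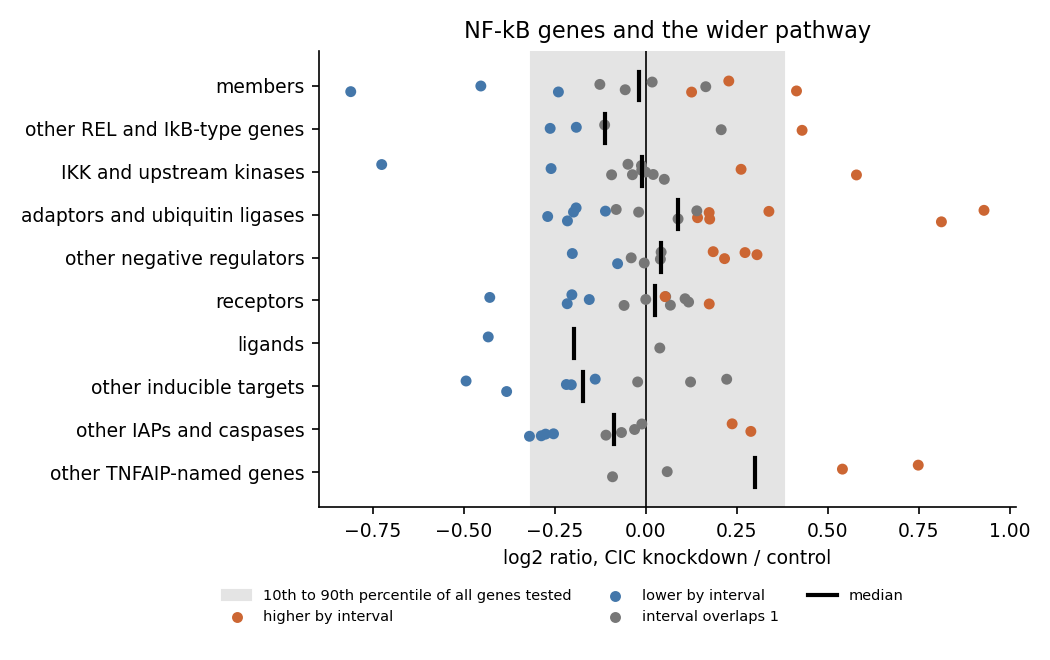
Log2 ratio of the library labelled CIC knockdown to control for the 10 genes and for each gene with at least 100 counts in the 9 lists of the wider pathway; each point is a gene, coloured by its counting interval, and black bars are medians. The grey band runs from the 10th to the 90th percentile of all genes tested; the median of the 10 genes is at -0.02 and that of the other inducible targets at -0.17.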

How the data were processed

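RNA-seq libraries of 2 T47D mammosphere samples were analysed, 1 per group. Tools named in the submitters' processing notes are HISAT2, StringTie and Trimmomatic, with GRCh38 and hg38 as builds. Versions, filters and pooling are not given in the sources used here. Per the file headers, the authors deposited for each gene and transcript a read count, which is an estimated count divided among transcripts, and values in FPKM and in TPM that they scaled to length and library. The design text speaks of duplicates, while the labels list 1 sample per group. The KD columns were matched to the title of the knockdown sample, the C columns to control, and 0 columns were left without a sample. The merged transcript table and the list of assembled transcripts outside genes were not used here.

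Counts were scaled by TMM factors (edgeR 4.0.16, R 4.3.3), 0.995 for control and 1.00 for CIC knockdown. Log2 ratios used a prior count of 2. Exact Clopper-Pearson 95% intervals, conditional on the summed count, and Poisson intervals cover counting error only (SciPy 1.17.1), and copied reads are not independent molecules. The method was tested on simulated Poisson counts, which leave out variation between cultures and the division of counts among transcripts. Alternatives were DESeq2 1.42.0 size factors, plain totals, totals without 7SL and 7SK genes, a prior count of 0.5, TPM, FPKM, halved counts, the table with assembled transcripts and the most abundant transcript alone. Promoter sequences are RefSeq's on GRCh38.p14, and strand is from GENCODE on GRCh38.

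The 10 genes and the lists were chosen with earlier results of these data known. Named list genes are the 3 with the largest absolute log2 ratio among those with at least 100 counts, and any past 2-fold. Transcripts were to be named where they hold at least 10% of a gene's TPM, and are given by start site.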

Additional observations from a re-analysis of the deposited data

How the results depend on the processing

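Across 8 alternatives, the ratios of BIRC3 (-0.82 to -0.66 on the log2 scale), NFKBIA (-0.24 to -0.20), RELA (0.22 to 0.30) and BIRC2 (0.02 to 0.05) stayed within their main counting intervals. The alternative that used the most abundant transcript alone changed 6 others: NFKB1 went to 0.58, NFKB2 to -0.91, RELB to -0.58, NFKBIB to 0.45 and TNFAIP2 to 5.98, and TNFAIP3 reversed to 0.23. That alternative drops the counts given to other transcripts by construction. Under it 4 genes were higher, 4 lower and 1 past 2-fold, against 3, 3 and 0. The gene past 2-fold was TNFAIP2, whose transcript had 1 and 241 counts. Plain totals and the table with assembled transcripts gave 4 higher, and halved counts 2, each with 3 lower. Among these alternatives the share of all genes called is given for halved counts alone, so the other numbers have no background beside them. The median of the 10 genes became 0.13 with the most abundant transcript and was also above 0 in TPM (0.0518) and FPKM (0.0329), against -0.02 in counts. Over all genes tested the median was also higher in TPM, at 0.0568 against 0.0230 in counts. In TPM the median of other REL and IkB-type genes turned to 0.0794, that of IKK and upstream kinases to 0.00991, and that of other inducible targets moved to -0.0119; the cause was not tested. The share of all genes past 2-fold was 8.95% with a minimum of 10 counts and 4.90% with none. No paired analysis was possible because each group has 1 library, and for the same reason no library could be left out. Depth limits RELB, TNFAIP2, TNFAIP3 and BIRC3 most, at 114 to 247 counts in each library.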
